A study of Mus musculus with 4 samples.

Results

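The distal class I part of the mouse major histocompatibility complex was taken here as the stretch of chromosome 17 from 35390000 to 37500000 (mm9), 2.11 Mb long, and all CTCF peaks with their midpoint above the lower and up to the upper limit were its members. This gave 83 of the 36381 peaks listed in B cells and 74 of the 31086 listed in plasmablasts. Since 66 peaks of each list overlapped one of the other by at least 1 bp, the members stood for 91 sites: 66 shared, 17 in B cells only and 8 in plasmablasts only. CTCF had been mapped by chromatin immunoprecipitation sequencing in spleen cells of C57BL/6 mice aged 6 weeks. The B cells had been purified as CD43-negative cells with magnetic beads, from mice for which the labels name no injection. The plasmablasts were CD138-positive cells sorted 3 days after 50 µg of lipopolysaccharide had been injected behind the eye. Each cell type had 1 CTCF library, with no replicate, and the B cell libraries were run on a Genome Analyzer II and the plasmablast libraries on a HiSeq instrument, so that cell type and instrument cannot be told apart. No p-value was therefore computed between the cell types. The labels do not say how many mice were pooled, and peak lists hold no expression by which the sorted cells could be checked against their markers.

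Class I molecules carry peptides from inside the cell to its surface, where T cells and natural killer cells read them. H2-D1 encodes a classical class I heavy chain present on nearly all nucleated cells. The genes of the H2-Q, H2-T and H2-M groups are mostly nonclassical: H2-T23 encodes Qa-1, which is read by natural killer receptors, and H2-M3 presents peptides that begin with formylmethionine, a mark of bacterial proteins. CTCF is a zinc finger protein that binds insulators and the anchors of chromatin loops. In the class II region of the same complex it is known for sites between the class II genes. In the RefSeq gene order of the later assembly GRCm38, H2-D1 comes first, followed by the H2-Q, the H2-T and the H2-M genes. From H2-D1 to H2-M2 that order counts 31 genes named H2-, of which 24 are annotated as protein-coding, among 87 protein-coding genes in all. How this span lies to the mm9 limits of the region was not determined, so these are not gene counts of the region. H2-D1 has Ddx39b and H2-Q1 as its protein-coding neighbours, H2-T23 has H2-T24 and H2-T22, and H2-M3 lies between the olfactory receptor genes Olfr98 and Olfr99. No mm9 annotation or sequence was used here, so no peak was assigned to a gene, an exon, an intron or a promoter, and sites are named by their mm9 position (chromosome 17, B cell interval unless stated).

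The values that describe a peak are the authors' own scores, whose unit is not stated and which are not on one scale in both lists. Each score was therefore turned into its percentile, the share of its own list with the same or a lower score. The depth of the libraries is unknown, so the lack of a listed peak does not show that CTCF was not bound there.

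CTCF sites were dense in the first megabase of the region and ended well before its distal limit. From 35390001 to 35890000 there were 32 sites: 25 shared ones, 5 B cell only and 2 plasmablast only. The next 500 kb, to 36390000, also held 32 sites, with 22, 7 and 3 of these classes. From 36390001 to 36890000 the number fell to 8 sites (5 shared, 1 B cell only, 2 plasmablast only), and it was 19 from 36890001 to 37390000 (14, 4 and 1). The last 110 kb held none in either list. In bins of 100 kb the number of sites ran from 0 to 10 with a median of 4 over the 21 full bins, and the 10 were reached from 35990001 to 36090000. Over the whole region the density was 39.3 B cell and 35.1 plasmablast peaks per Mb. It was 18.1 and 14.7 on the rest of chromosome 17 and 14.8 and 12.6 on the other autosomal sequence. The window of equal length directly proximal to the region was denser than the region, at 55.9 and 49.3 peaks per Mb.

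**Figure D1:**
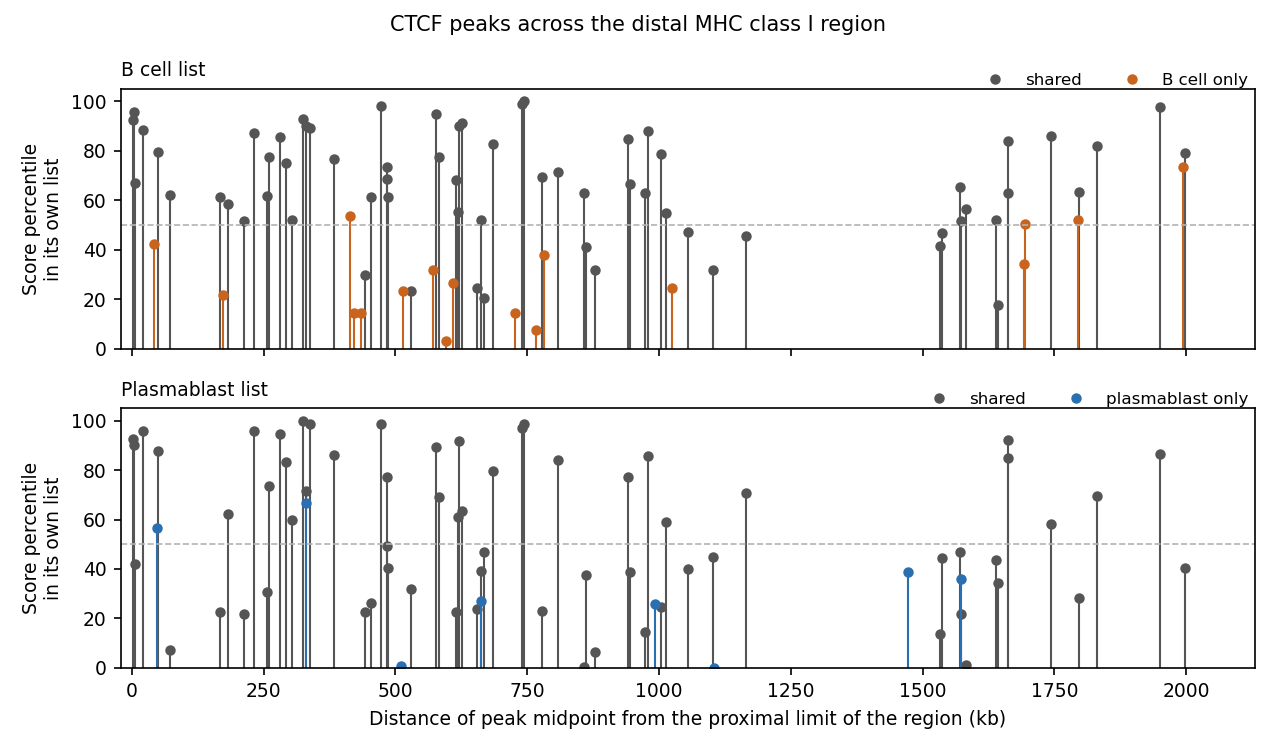
Each point is a CTCF peak of the region, plotted by the distance of its midpoint from the proximal limit (kb) and by its score percentile in the B cell list (upper panel) or the plasmablast list (lower panel). Grey points are shared, coloured points are unshared, and the dashed line is the 50th percentile; the unshared peaks sit mostly low, and both panels share an empty stretch in the distal part.

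Long stretches without CTCF peaks were common to both cell types. The widest one inside the region ran from the site at 36555323 to 36555627 to a plasmablast only peak at 36863097 to 36863275, a gap of 307 kb. In the B cell list alone the gap was longer, 368 kb between midpoints, since the next B cell peak lay at 36923585 to 36923889. The isolated plasmablast peak within that stretch scored 14.1 (38.7th percentile), and the nearest B cell midpoint was 60551 bp away. The other wide gaps, measured between midpoints, were 120 kb (from 37220621 to 37340586) and 95.4 kb (from 35462425 to 35557484), and shared sites bounded both of them.

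Beyond the last member neither list had a peak for 2.59 Mb. That last member, at 37387519 to 37387823, was shared, with a score of 161.2 in B cells (79.2nd percentile) and 14.8 in plasmablasts (40.5th). The next listed peaks were at 39980139 to 39980443 in B cells and 39982176 to 39982354 in plasmablasts, and they do not overlap. Both were unshared although at the top of their lists, with scores of 533.5 (100th percentile) and 179.6 (99.98th). Among 41713 peak-free stretches on the autosomes this one ranked 61 by length, and on chromosome 17 it ranked 3. A window as long as the region itself, placed directly beyond it, thus held 0 peaks of either list, whereas the window of that length on the proximal side held 118 B cell and 104 plasmablast peaks. At the proximal limit there was no such break. The last shared site outside lay at 35382857 to 35383161 (69.0th percentile in B cells, 44.2nd in plasmablasts) and the first inside at 35391702 to 35392006 (92.4th and 92.7th).

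**Figure D2:**
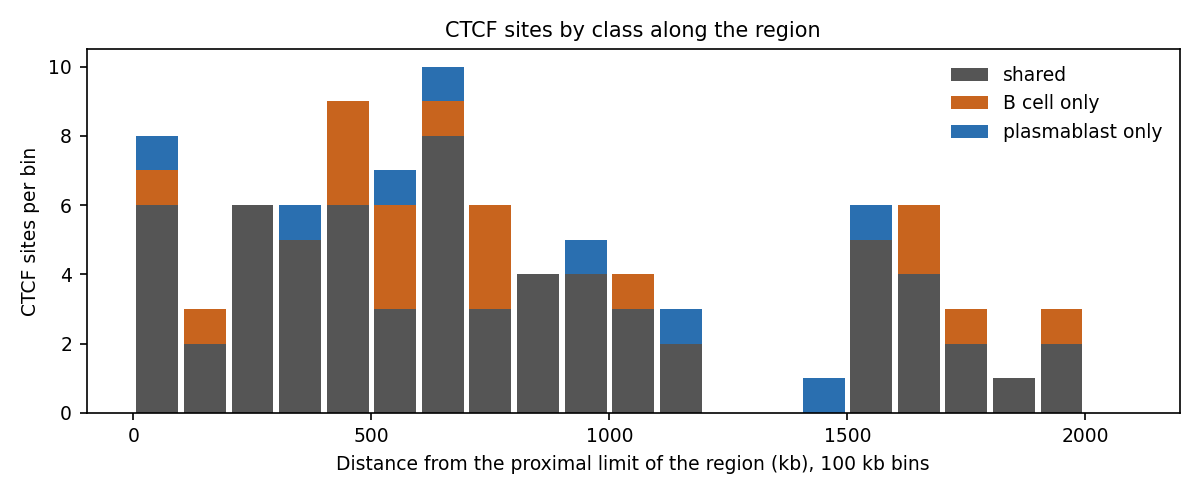
Bars give the number of CTCF sites in bins of 100 kb along the region, stacked by class (shared, B cell only, plasmablast only), with the distance from the proximal limit in kb on the horizontal axis. The tallest bar holds 10 sites, and 3 of the 21 bins hold none.

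Most sites of the region were listed in both cell types. In B cells 66 of 83 members were shared, 79.5% (exact 95% binomial interval 69.2 to 87.6%), against 67.9% of the whole list. In plasmablasts 66 of 74 were shared, 89.2% (79.8 to 95.2%), against 79.5% of the whole list. The intervals cover counting error only. In the adjacent proximal window of equal length, which was chosen as the nearest comparison, 70.3% of the B cell peaks (61.2 to 78.4%) and 79.8% of the plasmablast peaks (70.8 to 87.0%) were shared. The intervals of the region and of that window overlap for each list, and the difference was not tested.

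The score composition of the members went with the B cell value. When each B cell member was given the shared rate of its score decile in the whole list, the sum came to 79.2%, close to the 79.5% observed. For plasmablast members the same sum was 81.1%, which lies below the observed 89.2% and within its interval.

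**Figure D3:**
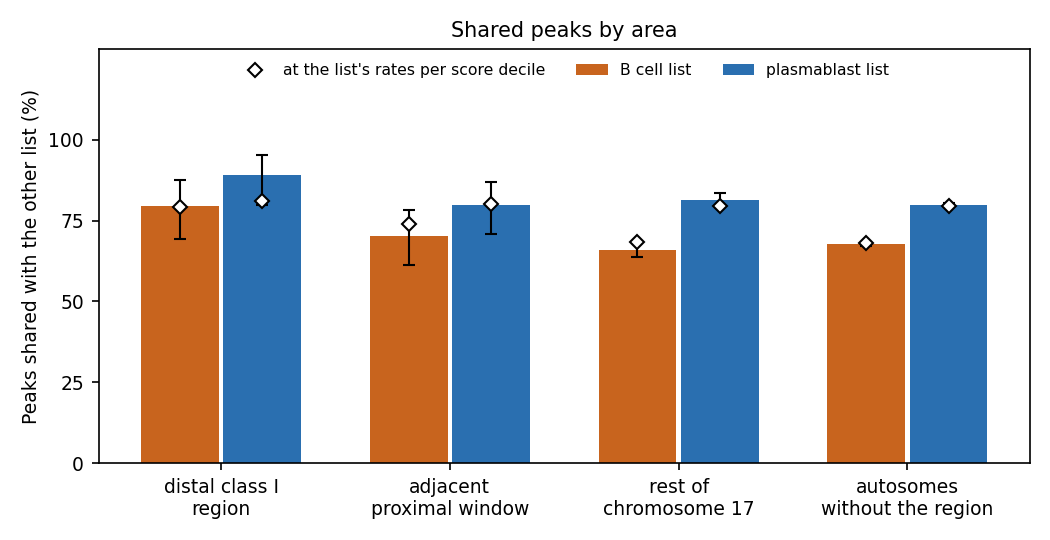
Bars give the percentage of peaks shared with the other list in the region, in the adjacent proximal window, on the rest of chromosome 17 and on the autosomes without the region, for the B cell and the plasmablast list. Error bars are exact 95% binomial intervals and diamonds the percentage at the whole list's shared rate per score decile; in the region the diamonds are at 79.2% and 81.1%, beside bars of 79.5% and 89.2%.

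B cell members ranked high in their list by their median, as B cell peaks of the adjacent proximal window also did. Plasmablast members as a group did not rank high. The B cell members had a median at the 62.0th percentile (quartiles 42.0 and 80.8). Of the 83, 57 (68.7%) scored above the median of the whole list, against 49.7% of all B cell peaks. In the adjacent proximal window the B cell median was at the 60.2nd percentile, and 67 of 118 peaks (56.8%) were above the list's median. The exact 95% intervals, 57.6 to 78.4% in the region and 47.3 to 65.9% in the window, overlap. In plasmablasts the median member was at the 48.2nd percentile (quartiles 27.3 and 83.8), and 36 of 74 (48.6%) were above the list's median, against 50% of all. Above the 95th percentile lay 5 B cell members (6.02%, against 5.09% of the list) and 7 plasmablast members (9.46%, against 5.02%). Weak peaks were few in B cells, with 2 members at or below the 10th percentile (2.41%, against 9.48%), and 6 in plasmablasts (8.11%, against 9.87%).

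Of the 11 shared sites above the 90th percentile in B cells, 7 were above it in plasmablasts too. These 7 of the 66 shared sites were 10.6%, against 7.31% of all shared sites that lay above the 90th percentile in both lists. The share was much the same in the adjacent proximal window, 9 of 83 shared sites (10.8%). On the rest of chromosome 17 it was 8.28%. First among the 7 of the region was the site at 36133895 to 36134199, with scores of 422.3 in B cells (99.99th percentile) and 81.2 in plasmablasts (98.7th). A second strong site, at 36130641 to 36130945, lay 3254 bp from it by B cell midpoints and scored 299.2 (98.9th) and 71.4 (97.0th). The closest other member on the distal side was a weak B cell only peak at 36157185 to 36157489 (score 16.7, 7.6th percentile), and on the proximal side another at 36116537 to 36116841 (20.4, 14.4th). This pair therefore stood alone among weak neighbours that the plasmablast list did not hold.

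The other strong shared sites lay proximal to this pair. The site at 35862586 to 35862890 scored 281.6 in B cells and 79.0 in plasmablasts (98.2nd and 98.5th percentiles). At 35715237 to 35715541 the B cell score was 233.4 (92.8th) and the plasmablast score 101.3 (99.7th), the highest plasmablast score of the region. At the proximal edge the sites at 35391702 to 35392006 (230.6 and 60.0; 92.4th and 92.7th) and 35395107 to 35395411 (253.8 and 55.5; 95.6th and 90.2nd) lay within 4 kb of each other. The site at 36010766 to 36011070 completed the 7, with scores of 217.7 and 57.9 (90.2nd and 91.6th). The 4 other sites above the 90th B cell percentile ranked lower in plasmablasts. They included the site at 36016477 to 36016781, with scores of 223.2 and 27.9 (91.2nd and 63.3rd), and that at 35721272 to 35721576, with 216.7 and 34.5 (90.1st and 71.6th). Just short of the 90th percentile in 1 of the lists were the sites at 35966687 to 35966991 (94.8th and 89.5th), 35727792 to 35728096 (89.1st and 98.6th) and 35411756 to 35412060 (88.5th and 95.8th). None of these 10 lay distal to the 36133895 site. Past it, the site with the highest lower percentile was at 37340586 to 37340890, with scores of 274.2 (97.6th) in B cells and 50.2 (86.7th) in plasmablasts.

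Shared sites followed the same broad order in both lists. The Spearman rank correlation of their scores was 0.74 over the 66 sites, against 0.70 over all 24702 shared sites. It is a description across sites, which share their 2 libraries and are no replicates. The B cell percentile was the higher one at 42 of the 66 sites (63.6%), against 66.2% of all shared sites. With ranks taken among shared sites alone, the B cell rank was the higher one at 33 sites and the plasmablast rank at 33, and over all shared sites these counts were 12693 and 12006. The median difference, plasmablast minus B cell, was -5.33 points (quartiles -27.6 and 7.20) in the region and -7.20 over all shared sites. With ranks among shared sites alone the medians were -0.23 and -0.49. The lower quartile over all shared sites was -21.3.

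**Figure D4:**
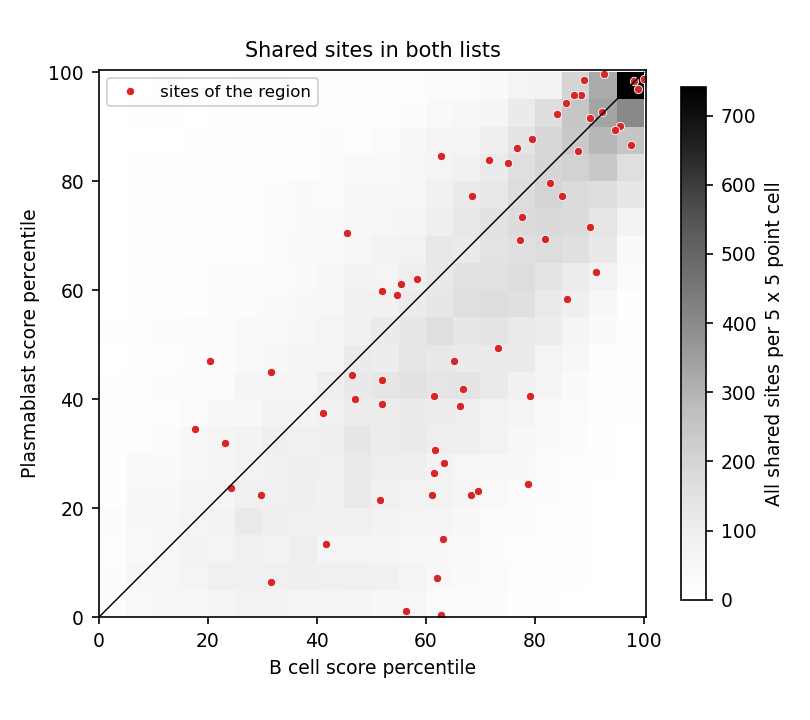
Red points are the 66 shared sites of the region, by score percentile in B cells (horizontal) and plasmablasts (vertical), over the number of all shared sites per cell of 5 by 5 percentile points (grey). The line marks equal percentiles; 42 of the points lie below it, and a group of them sits between the 50th and 75th B cell percentiles at low plasmablast percentiles.

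Sites of middling rank in B cells had the lowest plasmablast ranks relative to other shared sites of their class. At the 26 shared sites between the 50th and 75th B cell percentiles, the median plasmablast percentile was 39.0 (0.376 to 84.7), and over the 8071 such sites of the whole lists it was 51.3. At 19 of these 26 sites (73.1%) the plasmablast score did not exceed its list's median, against 48.2% of the 8071. In the other 4 classes the order was the other way. The 4 sites up to the 25th B cell percentile had a median plasmablast percentile of 33.2, against 21.6 over all shared sites of that class, and the 8 sites between the 25th and 50th had 38.8, against 31.4. The 17 sites between the 75th and 90th B cell percentiles had a median plasmablast percentile of 83.3, against 73.4 over all shared sites of that class, and the 11 sites above the 90th had 91.6, against 89.8. These classes were set after the values had been seen, and the differences were not tested.

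**Figure D5:**
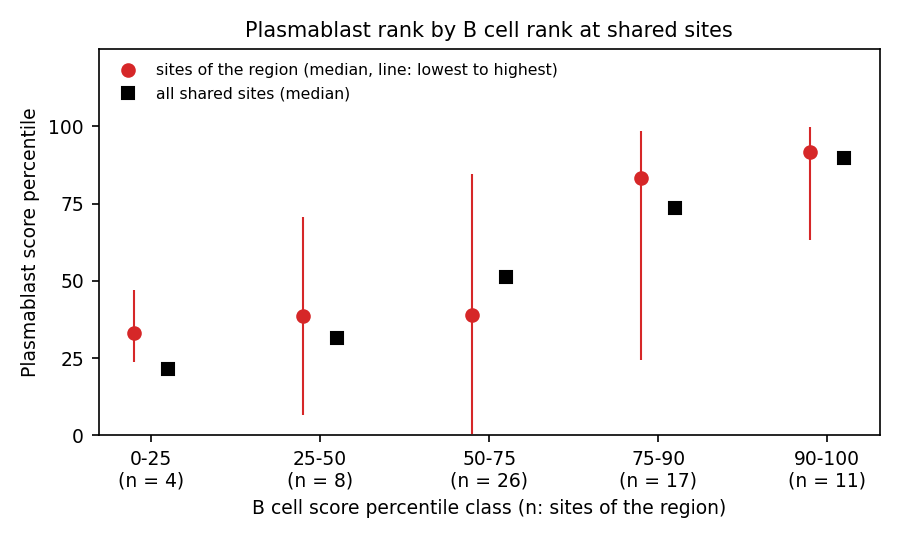
Shared sites are grouped by B cell score percentile on the horizontal axis, and the vertical axis gives the plasmablast score percentile. Red points are medians over the sites of the region with lines from the lowest to the highest, and black squares are medians over all shared sites; between the 50th and 75th B cell percentiles the medians are 39.0 and 51.3.

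A B cell percentile at least 25 points above the plasmablast one was found at 20 of the 66 shared sites (30.3%), against 20% of all shared sites, and the reverse at 2 sites (3.03%, against 5.67%). The widest difference was at 36247684 to 36247988, where the score was 95.4 in B cells (62.9th percentile) and 2.8 in plasmablasts (0.376th). The plasmablast peak there, at 36247860 to 36248038, had its midpoint 113 bp from that of the B cell peak. This pair would not count as shared if midpoints had to lie within 100 bp. At 36973112 to 36973416 the scores were 76.9 (56.5th) and 3.7 (1.15th), and at 35462121 to 35462425 they were 92.6 (62.0th) and 5.7 (7.30th). Among stronger B cell sites, the one at 36394203 to 36394507 scored 159.3 (78.8th) and 9.4 (24.5th). The site at 36363943 to 36364247 followed with 96.3 (63.1st) and 7.1 (14.5th). All 5 were thus ordinary or moderately strong peaks in B cells that lay at or below the 24.5th percentile of the plasmablast list. With percentiles taken among shared sites alone, the count was 12 of 66 (18.2%), against 11.9% of all shared sites. The limit of 25 points was set after the values had been seen.

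Sites that ranked higher in plasmablasts differed by less. The widest such difference was 26.5 points, at 36058184 to 36058488, with scores of 24.1 in B cells (20.5th percentile) and 17.8 in plasmablasts (47.0th). It was 25.03 points at 36555323 to 36555627 (52.8 and 33.6; 45.5th and 70.6th), the last site before the widest gap, and 21.9 points at 37051095 to 37051399 (95.4 and 47.9; 62.9th and 84.7th). The latter lay 944 bp from a stronger shared site at 37052039 to 37052343, which scored 184.3 and 59.3 (84.0th and 92.4th). The 2 remaining sites of the 5 with the widest difference in this direction, at 37033526 to 37033830 and 36492334 to 36492638, were weak in both lists, at the 17.7th and 31.6th percentile in B cells and the 34.5th and 45.0th in plasmablasts.

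The median rank difference was not even along the region. In the most proximal 500 kb the B cell percentile was the higher one at 12 shared sites and the plasmablast percentile at 13, with a median difference of 0.30 points. From 35890001 to 36390000 the counts were 17 and 5 (median -4.49), and from 36890001 to 37390000 they were 11 and 3 (median -15.4). The sparse stretch between these held 5 shared sites, with counts of 2 and 3. Over all shared sites the B cell percentile was the higher one at 66.2%. Differences of at least 25 points toward B cells were not confined to the more distal stretches. In order of position they were found at 6 of 25, 7 of 22, 1 of 5 and 6 of 14 shared sites, against 20% of all shared sites. The reverse was found at 0, 1, 1 and 0 of these, against 5.67% of all shared sites. In the stretch from 36890001 to 37390000, 13 of 18 B cell peaks but 5 of 15 plasmablast peaks were above the median score of their list. In the most proximal stretch these were 25 of 30 and 18 of 27. The segments were cut at fixed lengths from the proximal limit, hold few sites each and were not tested.

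Peaks listed in B cells only lay mostly in the lower part of their list, as such peaks did elsewhere. Their percentiles ran from 3.11 to 73.3 with a median of 26.7, against 20.5 over all unshared B cell peaks, and 3 of the 17 were above the list's median score (the same class makes up 2.92% of all B cell peaks, and 3 of 83 is near that share). The strongest was at 37383760 to 37384064, with a score of 135.2 (73.3rd percentile). The nearest plasmablast peak was the last of the region, 3774 bp away. The other 2 were at 35803113 to 35803417 (69.5, 53.6th percentile), with the nearest plasmablast midpoint 29133 bp away, and at 37183846 to 37184150 (65.8, 52.0th), 3026 bp from one. A run of 3 B cell only peaks without a site of another class between them began with that first one and went on at 35810726 to 35811030 and 35825660 to 35825964, both with a score of 20.4 (14.4th). Over all 17 the nearest plasmablast midpoint was between 2862 and 32145 bp away, and none lay within 500 bp, as 2.47% of all unshared B cell peaks did. The median distance was 6586 bp, against 13807 bp over all unshared B cell peaks. Plasmablast peaks are denser here (35.1 per Mb, against 12.6 on the other autosomal sequence), and the part of density in this distance was not tested.

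Peaks listed in plasmablasts only were fewer, and their median distance to a B cell peak was shorter than over all such peaks. The median distance to the nearest B cell midpoint was 1767 bp over the 8, against 11146 bp over all unshared plasmablast peaks. It was over 10 kb for 2 of the 8 (25%), against 52.1% of all unshared plasmablast peaks. B cell peaks are also denser here (39.3 per Mb, against 14.8 on the other autosomal sequence), and the part of density in these distances was not tested. Of the 8, 2 were above the list's median score, which is 2.70% of the 74 plasmablast members, against 5.11% of all plasmablast peaks. The higher of them was at 35719943 to 35720121 (plasmablast interval), with a score of 30.4 (66.6th percentile), 1392 bp from the midpoint of a shared site at 35721272 to 35721576. At 35438577 to 35438755 the score was 23.3 (56.5th), and the nearest B cell midpoint was 454 bp away. That B cell peak, at 35438968 to 35439272, overlapped another plasmablast peak with a score of 51.6 (87.7th), so that 2 plasmablast peaks stood beside 1 B cell peak. A like arrangement was seen at 36962624 to 36962802 (13.0, 35.9th percentile), 515 bp from the shared B cell site at 36963076 to 36963380. Since peaks were 179 bp wide in plasmablasts and 305 bp in B cells, the lists differ in how closely they can set peaks, and its part in these pairs was not tested. The remaining members of this class were at or below the 38.7th percentile, and the weakest, at 36494539 to 36494717, scored 0.9 (0.02nd percentile).

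Short runs of CTCF sites were described by the distance between neighbours. With gaps of at most 5 kb between midpoints, 47 of the 91 sites fell into 21 runs of at least 2, of which 5 had 3 sites and none had more. This was 51.6% of the sites, against 47.5% in the adjacent proximal window and 32.8% over all sites of both lists, where sites are less dense. Of the runs of 3, those at 35391702 to 35396339, 35873266 to 35876946 and 36004509 to 36011070 were made of shared sites alone. The other 2, at 35715237 to 35721576 and 36961125 to 36963380, each held 2 shared sites and 1 plasmablast only peak between them. Within a run the ranks could differ widely. In the run at 35873266 to 35876946, which spans 3.68 kb, the B cell percentiles were 73.3, 68.6 and 61.4 and the plasmablast percentiles 49.5, 77.3 and 40.5 in order of position, so that the middle site was the highest in plasmablasts but not in B cells.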

How the data were processed

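CTCF-bound and input DNA was sequenced from splenic B cells and plasmablasts (4 samples), and the 2 CTCF peak lists were used; the inputs were not analysed here. Bowtie, HOMER and mm9 are named per the submitters' processing notes. Their versions, the thresholds and any use of input were not stated in the labels. The authors' deposited score is 1 value per peak with no stated unit and was used only for ranks within a list. Positions were read as BED and 1 was added to each start. Peaks overlapping by at least 1 bp were shared. The overlap step was run on simulated peaks moved either slightly or very far, which does not cover overlaps at a peak's edge. On the real lists bedtools 2.31.1 gave the same counts. Intervals are exact (Clopper-Pearson). Named sites follow a rule: the 10 shared sites with the highest lower percentile, the unshared peaks above their list's median, the 5 widest rank differences in each direction, unshared peaks within 500 bp of the other list, the longest runs, the widest gaps and the limits; other sites were named after their values were seen. The members, lists and comparisons were chosen with earlier results of these data known. Alternatives were other overlap rules, stricter lists, other limits and other reference lists for the percentile. Gene order came from RefSeq (GRCm38), for names and neighbours only. Python 3.11.15, numpy 2.4.6, pandas 2.3.3, scipy 1.17.1 and matplotlib 3.10.9 were used.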

Additional observations from a re-analysis of the deposited data

How the results depend on the processing

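Of 30 alternatives, 26 stayed near the main value and 4 moved. Near meant within its 95% binomial interval, the 95% order-statistic interval of the median over members or, for counts, 1.5 times the main count. None changed the sign of the median rank difference. With both lists restricted to peaks above their median score, 33 of the 57 B cell members kept (57.9%) were shared. In the whole lists 12319 of 18089 were, so the region's share was then the lower one, whereas it was the higher one with the full lists. The partners of 21 of the 57 scored no higher than the plasmablast median. Matched to the whole plasmablast list, 94.7% of the same members were shared. That left 3 of the 57 unshared, against 1063 of the 18089. With percentiles taken among shared sites alone, the median rank difference was -0.23 points and the number of sites ranked at least 25 points higher in B cells was 12. That count, with its main value of 20 and its 3 alternatives, was added after seeing the data. No paired analysis was possible because each cell type had 1 CTCF library, and for the same reason no replicate could be left out. Merged or stricter peak calls need reads, and depth, which is unknown, limits what a missing peak means.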

Other observations

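The overlapping peaks of the region were not equally well centred on each other. At 55 of the 66 shared sites (83.3%) the midpoints of both lists lay within 50 bp, against 88.2% of all shared sites, and the median distance was 13 bp. The 11 sites with a larger distance were weaker in both lists. Their median was at the 46.6th percentile in B cells and the 23.8th in plasmablasts, against the 73.3rd and 63.3rd for the other 55. Over all shared sites the corresponding medians were 39.8 and 43.8 for the less centred sites and 69.2 and 58.1 for the others. The largest distance was 184 bp, at the first B cell site after the widest gap (36923585 to 36923889), which scored 46.3 in B cells (41.7th percentile) and 6.9 in plasmablasts (13.5th). The site at 36247684 to 36247988, with the widest rank difference of the region, was also among the 11. These values were looked at after the main results and were not tested.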
